A study of Danio rerio with 3 samples.

Results

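Solute carriers are membrane proteins that move sugars, amino acids, ions, metals, nucleotides and organic anions across the plasma membrane and the membranes of organelles, and their transcripts were examined in endothelial cells of the zebrafish anal fin. The members were rows of the count tables whose name starts with slc, the organic anion family slco included, and that summed to at least 20 UMIs (unique molecular identifiers, each marking 1 captured transcript) over all wells. Of 357 such rows among the 25839 rows of the tables, 111 were at 0, 176 held 1 to 19 UMIs and 70 were members. Members were thus chosen by their UMI sum over all wells, and their overall levels are a description. Of the 70 members, 67 are carriers by name and 3 are named after a carrier that their gene neighbours or that their protein binds (slc7a6os, slc9a3r1 and slc4a1ap).

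Cells positive for a fli1a:dsRed reporter, which marks endothelium through regulatory sequence of an ETS factor gene, were taken from anal fins at stage II-III, labelled immature, after enzymatic digestion, and sorted as single cells, with 80 pooled fins named for each of 3 plates of 384 wells. The labels give no genotype beyond the reporter and no age. The 3 plates are repeats of 1 group without a treatment or control group, and the labels do not say whether they came from separate fish, so the spread between plates may be technical. Libraries were made by MARS-seq, which tags the 3′ end of poly(A) transcripts, so levels are not scaled by transcript length and differences in capture between genes remain in them. The plates held 221176 to 559559 UMIs, with medians of 382 to 1064.5 UMIs in the wells that the authors listed as analysed, and plate 3 was the shallowest. All 384 well barcodes were shared by the 3 plates. Plates were also not copies of each other, since the members' counts differed between every pair of plates with a chi-square per degree of freedom of 1.66 to 1.83.

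In endothelium, solute carriers supply the cell itself and also pass nutrients between blood and tissue. Mitochondrial carriers of the slc25 family exchange nucleotides, phosphate and metabolites across the inner mitochondrial membrane. Carriers at the cell surface include the heavy and light chains of amino acid exchangers (slc3 and slc7), glucose transporters (slc2), phosphate importers (slc20) and the organic anion family slco, whose member SLCO2A1 takes up prostaglandins in mammals.

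The members made up a small and steady part of the RNA, and 1 mitochondrial carrier led it. They summed to 8858 of 1262127 UMIs, or 0.693%, 0.705% and 0.718% of plates 1, 2 and 3. The adenine nucleotide translocase gene slc25a5, which exchanges ADP for ATP across the inner mitochondrial membrane, alone held 3418 UMIs, or 38.6% of the members' UMIs. Its level was 2718, 2615 and 2885 UMIs per 1000000 UMIs of the plate (CPM) in plates 1, 2 and 3. Its paralogue rows slc25a4 and slc25a6 were both listed at 0. The phosphate carrier gene slc25a3b, which imports phosphate for ATP synthesis, followed at 531, 584 and 538 CPM, while its duplicate slc25a3a was listed at 0. The ATP-Mg/phosphate carrier gene slc25a25a stood at 109, 112 and 127 CPM, and its relative slc25a24 at 82.2, 85.2 and 76.9 CPM. Row slc25a22, which RefSeq lists as a synonym of slc25a55a, held 80.4, 106 and 127 CPM, and slc25a43, a carrier gene of unsettled substrate, 64.3, 97.6 and 63.3 CPM.

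**Figure D1:**
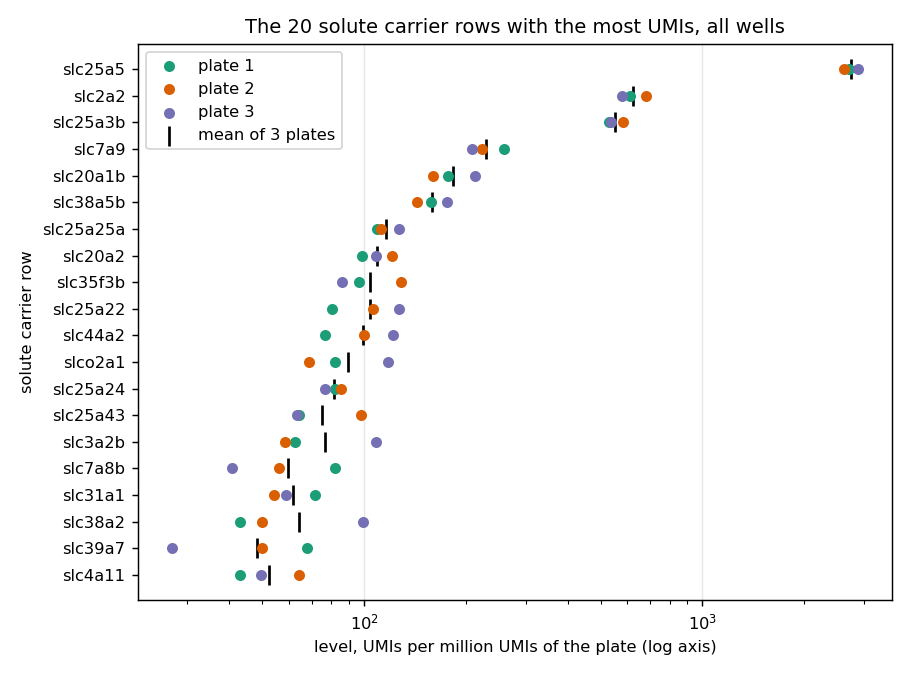
Level of the 20 solute carrier rows with the most UMIs, in UMIs per 1000000 UMIs of each plate on a log axis; points are plates 1 to 3 and the bar is their mean. The row slc25a5 lies at 2615 to 2885 CPM in all plates, and from slc25a25a downward the plates' ranges of neighbouring rows overlap.

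By carrier family, the 14 mitochondrial members held 55.2% ± 1.52 of the members' UMIs (SD, n = 3 plates), and the 11 amino acid carriers 11.3% ± 1.25. The sugar family consisted of slc2a2 alone, at 8.85% ± 0.798. Phosphate and related anion carriers (3 members, slc20a1b in the lead) held 4.74% ± 0.371, and metal carriers (9 members) 4.45% ± 0.873. The remaining carrier families each held between 1.68% ± 0.179 (4 monocarboxylate carriers) and 3.58% ± 0.574 (7 nucleoside and nucleotide sugar carriers), and the 3 rows that are not carriers by name held 1.101% ± 0.148. The plate values of the mitochondrial family, 53.7% to 56.7%, lay far from those of the amino acid family, 9.96% to 12.4%, whereas the ranges of most smaller families overlapped.

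**Figure D2:**
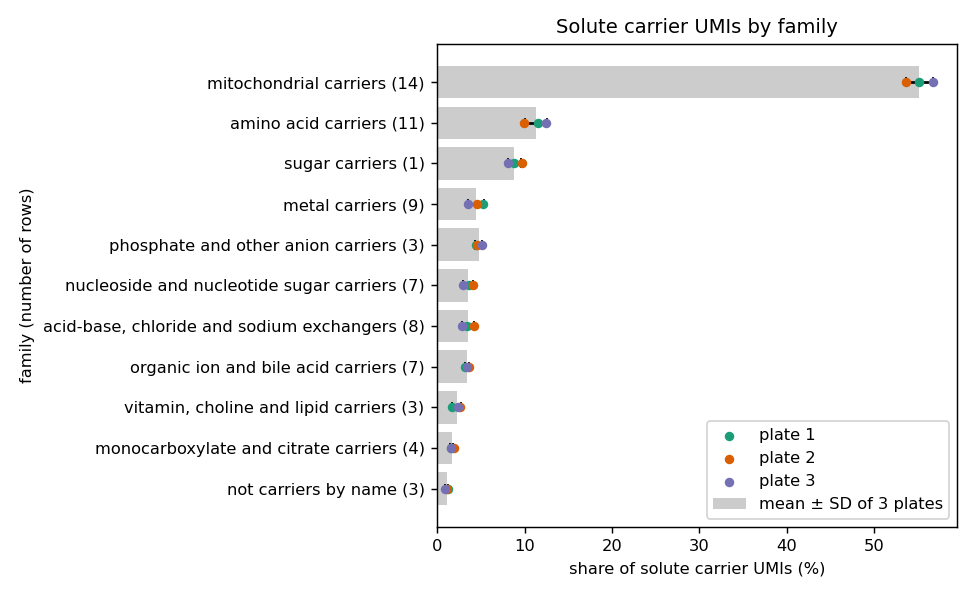
Share of solute carrier UMIs held by each family in percent; bars are the mean of 3 plates with SD, points are the plates, and the number of rows stands in brackets. The mitochondrial family holds 53.7% to 56.7% in every plate.

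The second row by UMIs was slc2a2, the gene of glucose transporter GLUT2, which is known from liver, kidney, gut and pancreatic islets. It held 798 UMIs, at 611, 681 and 579 CPM, spread over 411 wells with at most 10 UMIs in any well. Genes of the glucose transporter GLUT1, the usual carrier of endothelium in mammals, were close to absent from the tables, with slc2a1a at 0 and slc2a1b at 9 UMIs, and slc2a3a and slc2a3b were listed at 0. A like case was slc7a9, the light chain of a cystine and basic amino acid exchanger known from kidney and gut, at 259, 222 and 208 CPM, since the row of its heavy chain partner, slc3a1, was listed at 0. In the RefSeq annotation of GRCz12tu, a later assembly than the one counted here, slc2a2 lies between tnika and eif5a2, and slc7a9 between cep89 and nudt19. The tables held 6 UMIs for tnika and 5 for cep89, and no row under any RefSeq name of eif5a2 or nudt19. Whether UMIs of a neighbouring gene were counted under slc2a2 or slc7a9 was not tested. Likewise slc25a43 is the next gene beside slc25a5 there, and the origin of its 97 UMIs was not tested either. Other leading members also lie close to or across detected genes in that annotation. The gene slc25a25a overlaps acaa2 (66 UMIs), slc20a2 overlaps hsd17b3 (2 UMIs), and slc3a2b lies between banf1 (253 UMIs) and calm3b (449 UMIs). Counting from these neighbours was not tested.

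Among the other amino acid carriers, slc38a5b, a sodium-coupled glutamine carrier gene, led with 157, 143 and 176 CPM. The CD98 heavy chain gene slc3a2b, whose protein brings light chains to the cell surface, stood at 62.6, 58.2 and 109 CPM, and its duplicate slc3a2a held 26 UMIs in all. Of its light chains, slc7a8b (LAT2) held 82.2, 56.1 and 40.7 CPM, while slc7a5 (LAT1) held 7 UMIs in all and was no member. A well of 9496 UMIs in plate 1, the deepest in the series, contributed 12 of the 82 UMIs of slc7a8b and 9 of the 50 UMIs of slc4a2a, an anion exchanger gene, so that levels of those rows over all wells lean on it.

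Phosphate importers of the plasma membrane came next. The row slc20a1b stood at 177, 160 and 213 CPM and slc20a2 at 98.3, 120 and 109 CPM, and the duplicate slc20a1a held 2 UMIs. The leading members of the remaining families were slc35f3b, of the nucleotide sugar carrier family by number (96.5, 129 and 85.9 CPM), the choline transporter-like gene slc44a2 (76.8, 99.7 and 122 CPM), and the prostaglandin transporter gene slco2a1 (82.2, 68.6 and 118 CPM). Lower still were the copper importer gene slc31a1 (71.5, 54.0 and 58.8 CPM), the borate transporter-like gene slc4a11 (42.9, 64.4 and 49.7 CPM) and the aromatic amino acid carrier gene slc16a10 (41.1, 41.5 and 58.8 CPM). Of the rows that are not carriers by name, slc7a6os led with 41.1, 37.4 and 9.04 CPM. Ranges of plates overlapped for most neighbours in this order. Just inside the minimum lay slc10a7, slc29a1a and slc41a2b with 20 UMIs each, and just outside it slc17a9b, slc25a12 and slc25a21 with 19 each. Among carriers of other cell types, the pigment cell genes slc24a5 and slc45a2 held 0 and 1 UMIs. Of carriers known from red cells, slc4a1a, an anion exchanger gene, held 6 UMIs and the ammonia channel gene rhag 49. The globin gene hbz held 264. In the well classes defined below, rhag and the erythrocyte markers did not always go together. In plate 1 aqp8a.1-high wells the markers stood at 997 CPM and rhag at 0. In plate 3 wells of both kinds rhag held 7 UMIs and the markers 0. Both were found in plate 2 aqp8a.1-high wells (rhag 88.9 CPM, markers 336 CPM). The source of the rhag UMIs was not tested.

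The series title concerns blood vessels that arise from lymphatic ones, and carrier levels were compared between wells with a blood vessel and wells with a lymphatic transcript. The class aqp8a.1-high comprised listed wells of at least 500 UMIs with at least 5 UMIs of the water channel gene aqp8a.1 and none of lyve1a, a hyaluronan receptor gene of lymphatic endothelium. The class lyve1a-positive comprised listed wells of that depth with at least 1 UMI of lyve1a and fewer than 5 of aqp8a.1. They held 69, 71 and 20 wells against 92, 67 and 27 wells in plates 1, 2 and 3. A further 99 wells met both definitions and 227 neither, and these entered no test. Median depth was 1522, 1334 and 853.5 UMIs in aqp8a.1-high wells against 1577.5, 1452 and 833 in lyve1a-positive wells. Pan-endothelial markers summed to 4438, 5816 and 5531 CPM against 3571, 3180 and 4249 CPM in the 3 plates. Blood endothelial markers, aqp8a.1 included, stood at 20488, 19938 and 24017 against 4389, 4938 and 4766 CPM. Most of this gap is aqp8a.1 itself, which defined the class and alone held 15394, 14111 and 17290 CPM in aqp8a.1-high sums. Lymphatic markers, lyve1a included, stood at 997, 681 and 847 against 4862, 5958 and 5764 CPM. The lyve1a-positive sums thus held both marker sets at similar levels with the class genes counted. The class gene lyve1a alone held 2531, 3035 and 2623 CPM there. With aqp8a.1 and lyve1a set aside, blood markers were the higher set in the lyve1a-positive sums of each plate. The aqp8a.1 level of lyve1a-positive sums was 890, 723 and 998 CPM, near the 893, 819 and 1069 CPM of wells of neither kind. Of the marker lists of other cells, erythrocyte markers stood at 997, 336 and 99.7 CPM in aqp8a.1-high against 38.9, 201 and 0 CPM in lyve1a-positive sums, and neutrophil markers at 136, 29.6 and 299 against 117, 0 and 3584 CPM. Macrophage markers stood at 42.6, 9.87 and 199 against 22.3, 56.2 and 665 CPM, and muscle markers at 93.7, 88.9 and 149 against 300, 209 and 148 CPM. Keratinocyte markers stood at 630, 1185 and 797 against 1124, 771 and 554 CPM. Fibroblast and osteoblast markers stood at 137 ± 142 against 142 ± 60.8 CPM and mural markers at 677 ± 191 against 712 ± 77.2 CPM, while pigment and nerve markers were under 40 CPM in every aqp8a.1-high and lyve1a-positive sum. The part of these cells in the differences below was not tested, except where a value is given.

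The carriers as a whole did not differ between the classes in the same direction in all plates. Members summed to 6381, 6656 and 8022 CPM in aqp8a.1-high sums of plates 1, 2 and 3 (7020 ± 879, SD, n = 3). In lyve1a-positive sums they reached 7175, 7668 and 7538 CPM (7460 ± 255), higher in plates 1 and 2 and lower in plate 3. Wells that met both definitions had 6963 ± 251 CPM and wells that met neither 7229 ± 491 CPM. Without slc25a5 the members summed to 3535, 4217 and 5182 CPM in aqp8a.1-high sums. The lyve1a-positive sums then held 4639, 5075 and 4656 CPM, with the same split of plates. These summed levels were not tested. UMIs summed per plate and class were tested with edgeR's quasi-likelihood test with plate as a block, over the 1464 genes that passed the expression filter. The class genes aqp8a.1 and lyve1a were in this fit and in the adjustment of p-values, and counts are given over the other 1462. The filter passed 12 of the 70 members, and 58 were too low for it. Of the 1462 genes, 135 were called at a Benjamini-Hochberg adjusted p under 0.05, or 9.23%, with 5.68% higher in aqp8a.1-high and 3.56% higher in lyve1a-positive sums. Of the 12 members tested 1 was called, slco2a1, or 8.33%, a share close to that of all genes. The median log2 change was -0.21 over these 12 and 0.005 over all genes tested.

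**Figure D3:**
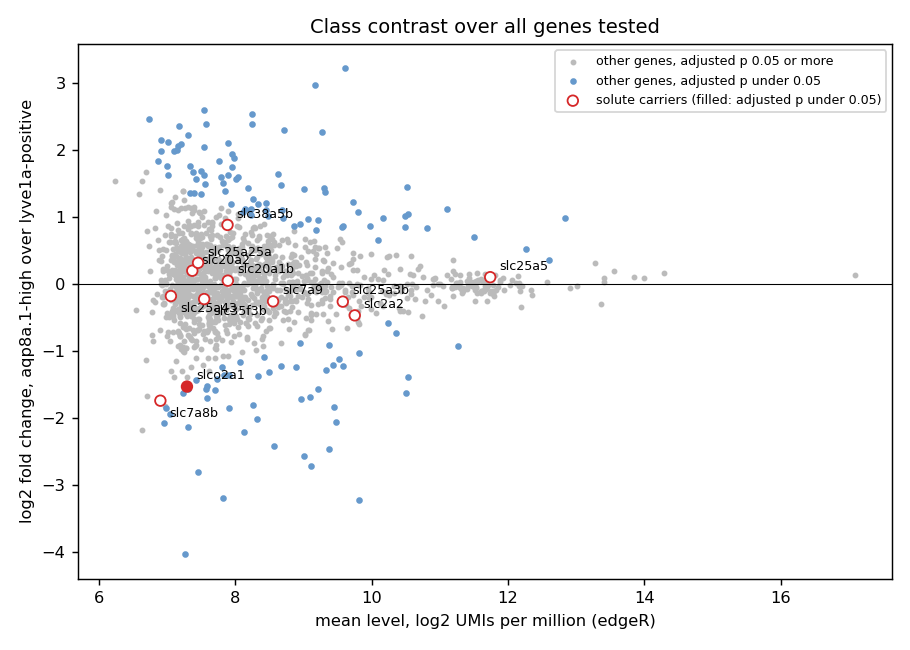
log2 fold change of aqp8a.1-high over lyve1a-positive sums against mean level (log2 CPM) for all genes tested by edgeR; circles are the 12 solute carriers tested, filled where the adjusted p is under 0.05. Of the carriers slco2a1 is filled, at -1.54, and slc25a5 lies near 0 at the highest level.

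The prostaglandin carrier gene slco2a1 was higher in lyve1a-positive sums. It stood at 134, 120 and 296 CPM there and at 59.6, 29.6 and 49.8 CPM in aqp8a.1-high sums of plates 1, 2 and 3, and the classes did not overlap. The counts behind these values were 47 against 11 UMIs. The expression filter keeps a gene that reaches its minimum level in as many sums as a class has. Only the lyve1a-positive sums of slco2a1 reached that level, so the gene entered the test through the class where it was high. The lack of overlap is thus no support for a difference. Without the filter slco2a1 was not called (log2 -1.65, adjusted p = 0.242, edgeR). In the main fit it was. The level was 2.90-fold higher in lyve1a-positive sums, with a 95% interval of 1.41 to 5.96 (log2 -1.54 for aqp8a.1-high over lyve1a-positive, SE 0.53, adjusted p = 0.0426, edgeR). Wells that met both definitions (41.4, 58.4 and 0 CPM) and neither (52.6, 73.6 and 89.1 CPM) lay below the lyve1a-positive sums of all plates. The call was narrow and was lost under 6 of the 11 alternatives that tested the gene. Among them were the fit without plate 3 (log2 -1.41, adjusted p = 0.0843, edgeR) and the fit without wells of 3 or more neutrophil or macrophage marker UMIs (log2 -1.52, adjusted p = 0.0508, edgeR). The direction of slco2a1 was kept in all 11. The fits without plate 1 and without plate 2 gave no value, since the gene did not pass their filter. In plate 3, where the level of slco2a1 was highest, neutrophil and macrophage markers were high too. In wells with no UMI of the neutrophil and macrophage lists slco2a1 stood at 139, 127 and 248 CPM in lyve1a-positive and at 23.7, 31.2 and 103 CPM in aqp8a.1-high wells, from 18, 15 and 3 against 2, 3 and 1 UMIs.

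The light chain gene slc7a8b did not pass the test. It stood at 106, 104 and 111 CPM in lyve1a-positive and at 34.1, 29.6 and 0 CPM in aqp8a.1-high sums, from 35 against 7 UMIs. These values did not overlap between the classes. As with slco2a1, only the lyve1a-positive sums reached the level of the expression filter. High values there were a condition of the test, so the lack of overlap is no support for a difference. The log2 change was -1.75 (SE 0.67, adjusted p = 0.0811, edgeR), and none of the 8 alternatives that tested it called it. The deep well named above met both definitions and is in neither sum. Its heavy chain partners were too low for the test. For slc3a2b, lyve1a-positive sums held 72.3, 96.4 and 111 CPM and aqp8a.1-high sums 51.1, 49.4 and 0 CPM. For slc3a2a they held 10 against 0 UMIs. With 3 UMIs over the class taken as the limit of a count of 0, the lyve1a-positive level stood 2.40-fold above that limit. This is no lower bound of the difference, since the counting error of the 10 UMIs is left out. Without the expression filter the log2 change of slc3a2a was -4.57 (SE 1.91, adjusted p = 0.720, edgeR).

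The glutamine carrier gene slc38a5b had the largest log2 change towards aqp8a.1-high sums among the members tested and did not pass. Its levels were 247, 148 and 349 CPM in aqp8a.1-high and 111, 120 and 185 CPM in lyve1a-positive sums, higher in the former in each plate but overlapping across plates. The log2 change was 0.88 (SE 0.39, adjusted p = 0.171, edgeR). Other tested members with a positive estimate were slc25a25a (log2 0.31, SE 0.45), slc20a2 (0.19, SE 0.46), slc25a5 (0.10, SE 0.14) and slc20a1b (0.04, SE 0.39), with adjusted p-values of 0.822 to 0.980. The estimates of slc20a2, slc25a5 and slc20a1b turned in sign under some alternatives.

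For slc25a5 the depth allowed a narrow estimate. It stood at 2845, 2439 and 2840 CPM in aqp8a.1-high and 2536, 2594 and 2882 CPM in lyve1a-positive sums, values that overlapped. The 95% interval of its log2 difference ran from -0.17 to 0.37. The phosphate carrier gene slc25a3b stood at 486, 444 and 747 against 612, 707 and 554 CPM (log2 -0.27, interval -0.75 to 0.22). None of the 4 mitochondrial members tested was called, and 10 were not tested.

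The class difference of slc2a2 pointed in opposite directions in different plates. Its level in aqp8a.1-high sums was 409, 543 and 847 CPM, against 745, 907 and 480 CPM in lyve1a-positive sums, so that it was lower in aqp8a.1-high sums of plates 1 and 2 and higher in that of plate 3. Over the 3 plates the log2 change was -0.47 (SE 0.24, adjusted p = 0.255, edgeR). Without plate 3, which held 17 and 13 of its UMIs, the change was -0.75 at an adjusted p of 0.0179 (edgeR), and slc2a2 was then the only member called, where 9.54% of all genes tested were called, 5.48% higher in aqp8a.1-high and 4.06% in lyve1a-positive sums. The row slc7a9 showed the same split of plates, at 196, 237 and 399 against 345, 289 and 185 CPM, with a log2 change of -0.27 (SE 0.33, adjusted p = 0.792, edgeR). The last members tested, slc35f3b and slc25a43, had log2 changes of -0.23 and -0.19 with adjusted p-values of 0.882 and 0.928 (edgeR).

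**Figure D4:**
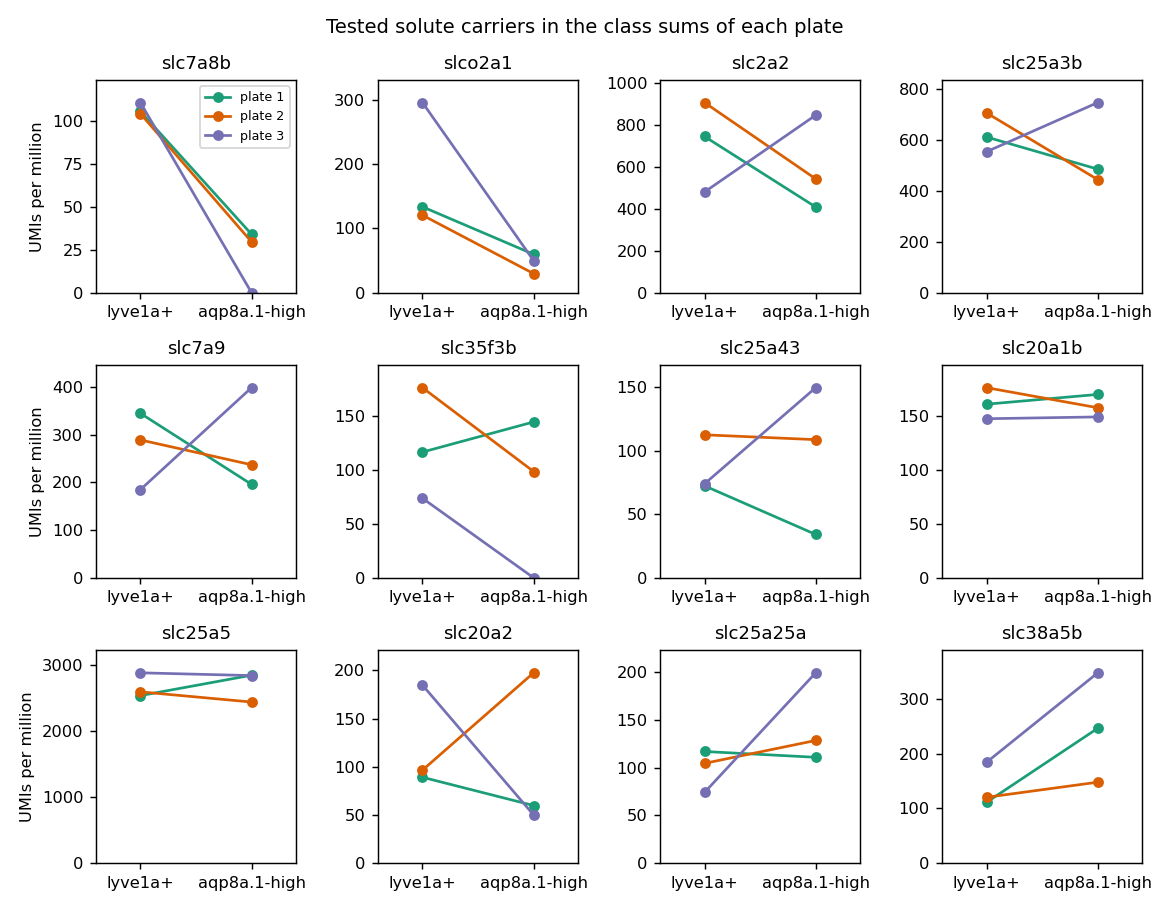
Level of the 12 tested solute carriers, in UMIs per 1000000 UMIs of the class sum, in lyve1a-positive and aqp8a.1-high wells; lines join the sums of a plate. For slco2a1 and slc7a8b the aqp8a.1-high sum is the lower one in all plates, while for slc2a2 and slc7a9 it is the lower one in plates 1 and 2 and the higher one in plate 3.

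Other members of the organic anion family slco were too low for the test and were chosen for description after their values were seen. The row slco1d1 held 17.0, 119 and 49.8 CPM in aqp8a.1-high and 5.56, 0 and 0 CPM in lyve1a-positive sums. That is 15 against 1 UMIs, a ratio of 20.8 with an exact 95% interval of 3.20 to 877 that covers counting error only, and 12 of the 15 UMIs came from plate 2. Wells that met both definitions held 82.8, 58.4 and 89.7 CPM of slco1d1. The row slco2b1 had the same order, with 5 UMIs in aqp8a.1-high, 11 in wells of both kinds, 2 in wells of neither and 0 of 331382 UMIs in lyve1a-positive sums, a count that allows up to 9.05 CPM. The level of slco2b1 in aqp8a.1-high sums stood 2.31-fold above that limit. This is no lower bound of the difference, since the counting error of the 5 UMIs is left out. Without the expression filter its log2 change was 3.91 (SE 2.73, adjusted p = 0.985, edgeR). The row slco4a1 ran the other way, with 15 UMIs in lyve1a-positive and 3 in aqp8a.1-high sums, a ratio of 3.60 (interval 1.02 to 19.4), but its level was 50.1, 48.2 and 0 against 0, 19.7 and 49.8 CPM, so plate 3 pointed the opposite way. Without the expression filter all 70 members were tested and 0 were called. Of the 70, 11 (15.7%) had an unadjusted p under 0.05 (edgeR), against 3.99% of all genes of that fit. Those genes include ones under 20 UMIs, so the shares are not matched by level and their difference is not a result about carriers. Of the members slco1d1 had the smallest p (log2 3.68, SE 1.13, adjusted p = 0.139, edgeR). The background of that fit was 0.590% of 13558 genes called, 0.288% higher in aqp8a.1-high and 0.302% in lyve1a-positive sums. In the main fit, with the filter, 4 of the 12 members tested and 18.4% of all genes had an unadjusted p under 0.05 (edgeR).

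**Figure D5:**
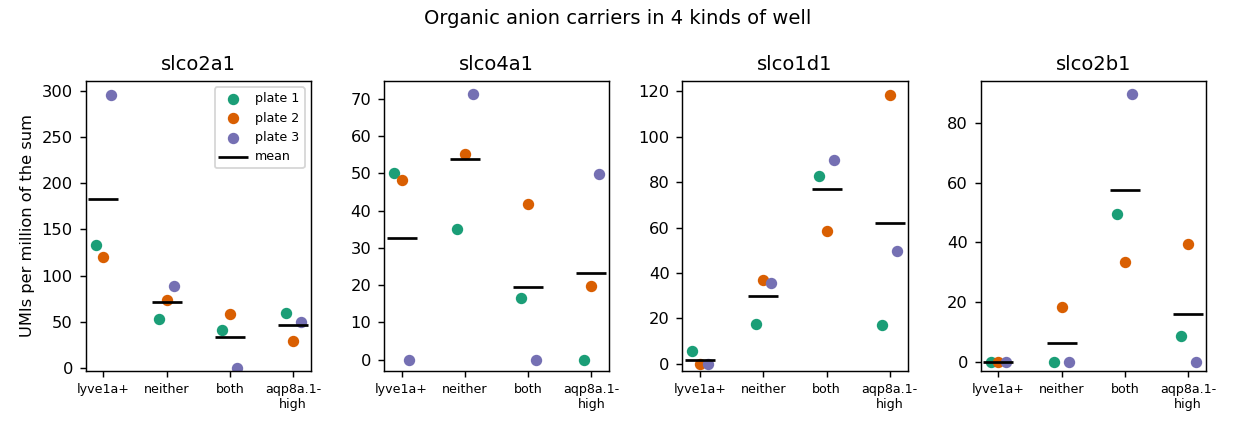
Level of 4 of the 5 slco members in UMIs per 1000000 UMIs of the sum, in lyve1a-positive wells, wells of neither kind, wells of both kinds and aqp8a.1-high wells; points are plates 1 to 3 and the bar is their mean. The lyve1a-positive sums are highest for slco2a1 (120 to 296 CPM), and for slco1d1 and slco2b1 they lie at 0 to 5.56 CPM.

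Further low members with an unadjusted p under 0.05 in the unfiltered fit included the potassium-chloride cotransporter gene slc12a7b (20 against 3 UMIs), the organelle sodium-proton exchanger gene slc9a7 (19 against 3), the carrier gene slc16a9a (16 against 2) and the carnitine-acylcarnitine carrier gene slc25a20 (13 against 2), each with more UMIs in lyve1a-positive sums. The sodium-potassium-chloride cotransporter gene slc12a2 had 9 UMIs in aqp8a.1-high and 2 in lyve1a-positive sums. Counting intervals of these ratios were wide, for slc12a7b 1.42 to 25.2 around 4.80 and for slc12a2 1.29 to 59.4 around 6.25. The intervals pool the plates and cover counting error only, and slc12a7b was at 0 in both classes of plate 3. These rows were picked by their p-values in the same contrast, so intervals that leave out a ratio of 1 are no support for a difference. None of these members had an adjusted p under 0.575 (edgeR). The row SLC12A2, of the same name in capitals and outside the members, had more UMIs than slc12a2. It held 23 in aqp8a.1-high and 26 in lyve1a-positive sums (log2 0.34, adjusted p = 0.836, edgeR).

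Related transport genes outside the slc names were tested where their levels allowed. Of 17 rows of carriers under other names 1 was tested, spns2, the sphingosine-1-phosphate exporter gene, and it was higher in aqp8a.1-high sums. It stood at 400, 632 and 847 CPM against 311, 361 and 296 CPM, without overlap of the classes, and at 666, 580 and 695 CPM in wells of neither kind (log2 0.80, SE 0.27, adjusted p = 0.0386, edgeR). This call too was lost without plate 3 (adjusted p = 0.139, edgeR) and without plates 1 or 2. Among the alternatives it was kept only with all wells counted, with wells of both kinds as lyve1a-positive and with wells thinned to 500 UMIs. Adjusted p-values ran from 0.0141 to 0.782 over all alternatives (edgeR and DESeq2). The size of the change moved with the class definition, from log2 0.27 against lyve1a wells with no aqp8a.1 and 0.43 with wells of both kinds as aqp8a.1-high to 1.28 in wells thinned to 500 UMIs. Of the carrier partner list, bsg, which encodes the chaperone basigin of monocarboxylate carriers, did not pass at 518 ± 179 against 366 ± 31.4 CPM (adjusted p = 0.280, edgeR). None of the tested genes was called among sodium potassium ATPase subunits (2 of 12 rows tested), vacuolar proton ATPase subunits (2 of 19) and ABC transporters (2 of 44). The leading genes were atp1b1a, at 714 ± 149 against 799 ± 113 CPM, atp6v0ca, and abca1a, with log2 changes of -0.21, -0.47 and -0.73. Of the carriers known from mouse blood-brain barrier endothelium 12 rows were found, 10 held a UMI, and slc38a5b led with 196 UMIs, followed by slc3a2b (87) and the iron exporter gene slc40a1 (61). They summed to 347 ± 11.1 CPM in aqp8a.1-high and 390 ± 142 CPM in lyve1a-positive sums.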

How the data were processed

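For each of 3 plates the authors deposited raw UMI counts by gene and well, and a list of the wells they analysed (384, 384 and 268). Per the submitters' processing notes, Bowtie2 and GRCz10 were used. Annotation, strand rule, read filters and UMI collapsing: not given in the sources used here. No columns of per-sample values were left unused. Members and gene lists were chosen with earlier results of these data known.

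Rows in capitals (SLC) were not members. Levels are UMIs per 1000000 UMIs of a plate or class sum (CPM). Class sums were compared by the quasi-likelihood test of edgeR (version 4.0.16, R 4.3.3) after filterByExpr (10 counts, 15 in total) and TMM, with plate as a block and Benjamini-Hochberg adjustment at 0.05 over all genes tested. The fit was tested on simulated data, where it called 66.3% of 2-fold changes, 98.9% of 4-fold changes and 0.0897% of unchanged genes. The spread of the simulation was set in advance and not estimated from these plates, so these shares need not hold here. The SE is the log2 change over the root of the F statistic, and its 95% interval is normal. The block rests on both classes of a plate sharing its fins, sort and library. Deviations of same-plate sums from the class means correlated at 0.0934, 0.0596 and 0.0852. The highest correlation with a sum of another plate was 0.0708, -0.0212 and -0.0491. All of these are weak, so the data themselves show little of the pairing.

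Members named by rule were the 15 with the most UMIs, those called and the 5 largest tested changes in each direction. The rule also named the leader of each family and 3 rows on each side of the minimum. Other members were named outside this rule after their values were seen. They were slco1d1, slco2b1, slco3a1, slco4a1, slc3a2a, slc4a2a, slc12a7b, slc9a7, slc16a9a, slc25a20, slc12a2 and slc40a1. RefSeq symbols matched 65 members and synonyms 4. No sequences are shown. Alternatives covered DESeq2 1.42.0, scaling, filter, block, plates left out, wells, depth and class limits. Figures used matplotlib 3.10.9 on Python 3.11.15.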

Additional observations from a re-analysis of the deposited data

Results flagged for a closer look

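The 116 wells of plate 3 that are not on the list of analysed wells entered no comparison and held 494 member UMIs. That was 0.643% of their UMIs, against 0.757% in listed wells of the plate, and slc25a5 stood at 2657 against 3005 CPM. Rows with names in capitals fell outside the members by the letter of the rule, and 7 of them reached 20 UMIs. SLC22A31, an organic ion carrier by name, held 215 UMIs, at 195, 174 and 99.5 CPM in plates 1, 2 and 3, and SLC12A2 held 108, beside the 24 of the row slc12a2. Between the classes SLC22A31 had an edgeR log2 change of 0.49 (adjusted p = 0.583) and SLC12A2 of 0.34 (adjusted p = 0.836).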

How the results depend on the processing

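The expression filter left 12 of 70 members in the test, and without it the low counts of the others gave wide intervals. Of 160 values of the tested members under alternatives, 139 kept direction and side of the threshold. Since 11 of the 12 tested members were not called in the main fit, this mostly counts members that stayed uncalled. Settings where a member failed the filter gave no value. The alternatives without wells rich in immune markers, with capital rows and with lyve1a wells free of aqp8a.1 were chosen after seeing the data.

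Against 135 genes called (83 higher in aqp8a.1-high, 52 in lyve1a-positive), the DESeq2 test called 40 (17 and 23), the fit without an expression filter 80 (39 in aqp8a.1-high), wells of both kinds counted as lyve1a-positive 84 (52 and 32), wells thinned to 500 UMIs 41 (24 and 17), a depth minimum of 1000 83 (49 and 34), an aqp8a.1 minimum of 3 52 (24 and 28) or of 10 73 (42 and 31), and lyve1a wells with no aqp8a.1 26 (13 and 13). Leaving out a plate gave 36 to 155 (17 to 89 and 19 to 66). Members called were 0 in place of 1 in these settings except the depth minimum of 1000, and also without the replicate block and without wells of 3 or more immune marker UMIs; leaving out a plate gave 0 to 1, the 1 being slc2a2 without plate 3.

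For slco2a1 the adjusted p ran from 0.0072 to 0.434 over 11 alternatives. Without the replicate block it was 0.0536 (log2 -1.58), with DESeq2 0.434, without a filter 0.242, with an aqp8a.1 minimum of 3 0.160 and without immune-rich wells 0.0508. In 6 settings the gene did not pass the filter. Without the replicate block 110 genes were called (69 and 41).

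Direction turned for slc20a1b without a filter (-0.062), without plate 1 (-0.054; 0.11 without plate 2, the range over plates left out), with all wells (-0.070) and at aqp8a.1 minimums of 3 (-0.21) and 10 (-0.19); for slc20a2 by DESeq2 (-0.14) and with wells of both kinds as aqp8a.1-high (-0.31); for slc25a5 without a filter (-0.0058), without plate 1 (-0.0063; 0.14 without plate 2), thinned (-0.016) and against lyve1a wells with no aqp8a.1 (-0.0037); for slc2a2 against those wells (0.065); for slc35f3b with wells of both kinds as lyve1a-positive (0.069); and for slc7a9 without plate 1 (0.17; -0.52 without plate 3). The cause was not tested.

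Minimums of 10 and 40 UMIs gave 114 and 39 members in place of 70. With capital rows, shares became 52.7% for mitochondrial, 4.73% for acid-base, chloride and sodium, and 5.62% for organic ion carriers.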
